A study of Mus musculus with 2 samples.

Results

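The miR-34/miR-449 family was examined in microvesicles (MVs), small membrane particles released by cultured cells. Members were taken by name. Every deposited entry with the stem miR-34a, miR-34b, miR-34c, miR-449a, miR-449b or miR-449c was included, whichever arm of the hairpin it came from. This gave 8 of the 831 entries, namely mmu-miR-34a-5p, mmu-miR-34a-3p, mmu-miR-34b-5p, mmu-miR-34b-3p, mmu-miR-34c-5p, mmu-miR-34c-3p, mmu-miR-449b and mmu-miR-449c-3p. The entry of miR-449b gives no arm. The arms of miR-449a and the 5p arm of miR-449c were not analysed here.

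The study asked whether erythropoietin (EPO), the hormone that drives red blood cell formation, alters the miRNAs that mesenchymal stem cells (MSCs) pass on in MVs. MSCs came from the bone marrow of 4-week-old male C57BL/6 mice. They were grown for 48 h in DMEM/F12 medium with fetal bovine serum and penicillin/streptomycin. The EPO-MV array carried RNA from MVs of cells given 100 IU/ml EPO, and the MSC-MV array carried RNA from MVs of cells without it. Each group was 1 array, so no difference below has a replicate array, and no test was run. EPO treatment cannot be told apart from the culture, the MV preparation and the array as a source of a difference.

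The miR-34 members of this family are best known as effectors of the tumour suppressor p53. After DNA damage p53 binds upstream of the Mir34a gene and of the shared Mir34b and Mir34c transcript, and the mature miRNAs repress cell cycle and survival genes such as Cdk6, Ccnd1, Met, Bcl2 and Sirt1. The miR-449 members lie within an intron of Cdc20b, beside the multiciliogenesis genes Mcidas and Ccno. They are abundant in multiciliated epithelia of the airway and oviduct and in the testis. In these tissues they act together with miR-34b and miR-34c. A miRNA finds its targets mainly through its seed, bases 2 to 8 from the 5′ end, and miRNAs with the same seed share most of their targets.

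The mature sequences below, from RefSeq on the mouse build GRCm38.p6, are shown because the family is defined by its seed, which is in capitals. Mature sequences were matched for 6 of the 8 entries. No genome build comes with the array values, and the positions are those of RefSeq. The first group holds the 5p arms, with those of miR-449a and miR-449c added for comparison.
mmu-miR-34a-5p (chr4:150068473-150068494, plus strand): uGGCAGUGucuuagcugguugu
mmu-miR-34b-5p (chr9:51103610-51103632, minus strand): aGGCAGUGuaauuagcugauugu
mmu-miR-449a-5p (chr13:113037549-113037570, plus strand): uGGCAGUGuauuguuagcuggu
mmu-miR-449c-5p (chr13:113036008-113036028, plus strand): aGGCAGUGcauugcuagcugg

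The second group holds the 3p arms among the entries, which do not carry that seed.
mmu-miR-34a-3p (chr4:150068517-150068537, plus strand): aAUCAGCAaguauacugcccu
mmu-miR-34b-3p (chr9:51103574-51103595, minus strand): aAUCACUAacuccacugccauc
mmu-miR-34c-3p (chr9:51103044-51103065, minus strand): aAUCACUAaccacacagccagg
mmu-miR-449c-3p (chr13:113036049-113036070, plus strand): cAGUUGCUagcugcacuacccu

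All 4 of the printed 5p arms had the seed GGCAGUG. Read base by base from the 5′ end, miR-34a-5p and miR-34b-5p were the same at 11 of 22 positions, which includes the whole seed. Of the 831 entries, 680 (81.8%) had a mature RefSeq sequence by name, and no entry outside the family had the seed GGCAGUG. The 3p arms of miR-34b and miR-34c shared the seed AUCACUA and were the same at 17 of 22 positions. The seeds of miR-34a-3p and miR-449c-3p each occurred in that entry alone. As a motif on the given strand, GGCAGUG was found once in each of the RefSeq hairpins of Mir34a, Mir34b, Mir34c, Mir449a and Mir449c. It was present in 17 of all 1005 hairpins (1.69%).

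The genes lie at 3 places. In RefSeq, Mir34a is on chromosome 4. Mir34b and Mir34c are on chromosome 9 with 451 bp between them, inside the bounds of Btg4 and Hoatz. On chromosome 13, Mir449b is 35 bp from Mir449a and 1327 bp from Mir449c, all within Cdc20b.

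In the deposited values the 5p arms of the miR-34 genes were bright with ratios from 0.629 to 0.856, of which that of miR-34a-5p alone was past the threshold as lower in EPO-MVs. The 3p arms of Mir34b and Mir34c had ratios near 1, and both miR-449 entries were dim and past the threshold as higher. Values are the normalized intensities as deposited. A fold change is the EPO-MV value divided by the MSC-MV value, with no pseudocount. An entry was called past the threshold when its ratio reached 1.5 or fell to 0.667, its inverse, or beyond, following the study's fold filter. By this rule 3 of the 8 members were past it, 2 higher and 1 lower, beside 25.4% of all 831 entries. Over all entries 148 were higher and 63 lower, a split that became 95 and 95 with quantile normalization, 92 and 96 with lowess, and 29 and 25 with a pseudocount of 0.0573. The median log2 ratio was -0.12 for the 8 members and 0.05 for all entries. Ratios spread more widely among dim entries, so each member was also read beside entries of its own intensity. For this, entries were sorted by their mean log2 intensity over the arrays and split into 4 bins of nearly equal size. In the brightest bin 8.65% of 208 entries were past the threshold, and in the dimmest bin 61.1% of 208 were. The miR-34 5p arms and the 3p arms of Mir34b and Mir34c lay in the brightest bin. The entries miR-34a-3p, miR-449b and miR-449c-3p lay in the dimmest.

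**Figure D1:**
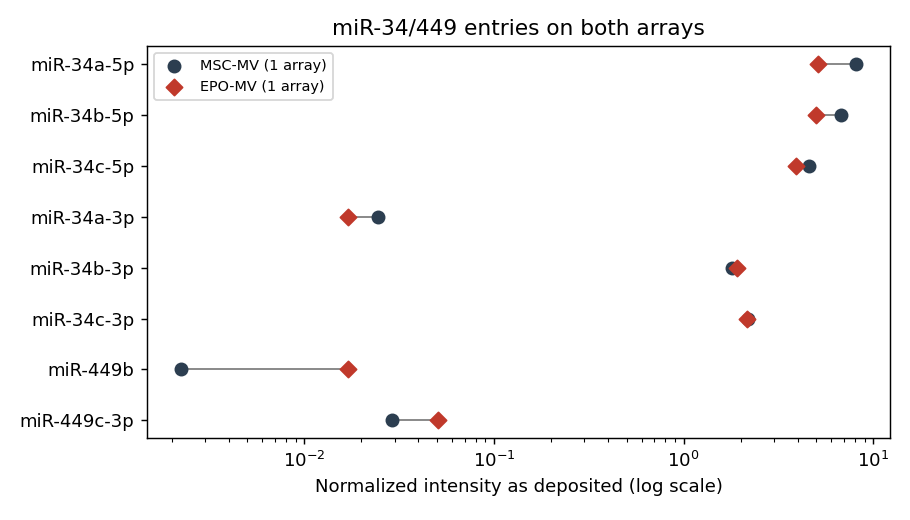
Normalized intensity (log scale) of the 8 miR-34/miR-449 entries on the MSC-MV array (dark circles) and the EPO-MV array (red diamonds), 1 array each, with a line joining the values of an entry. The miR-34 5p arms lie between 3.93 and 8.14 with the EPO-MV value lower, and miR-449b and miR-449c-3p lie at or below 0.0510 with the EPO-MV value higher.

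The principal member, miR-34a-5p, is the arm of Mir34a that represses the p53 effector targets. Its intensity was 5.12 in EPO-MVs and 8.14 in MSC-MVs, a ratio of 0.629, so that the MSC-MV value was 1.59 times the EPO-MV value. It was the only member past the threshold as lower in EPO-MVs. In the brightest bin, 10 of the 208 entries had a lower ratio, and 16 were past the threshold as lower and 2 as higher. The median ratio of that bin was 0.942. With quantile normalization the bin had 9 lower and 5 higher (median 1.00), and with lowess 9 and 4 (1.01). The call of miR-34a-5p ended when the arrays were brought together across intensities. Its ratio was 0.730 with quantile normalization and 0.698 after removal of the trend of the ratio with intensity by lowess.

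The 5p arms of the gene pair on chromosome 9 lay on the same side of 1 without passing the threshold. The intensity of miR-34b-5p, which has the seed of miR-34a-5p, was 4.96 in EPO-MVs and 6.76 in MSC-MVs (ratio 0.733). For miR-34c-5p the values were 3.93 and 4.59 (ratio 0.856). Among the 208 brightest entries, 27 had a lower ratio than miR-34b-5p and 68 had a lower ratio than miR-34c-5p. The order of the ratios was thus miR-34a-5p, miR-34b-5p and miR-34c-5p. It was the same with lowess, with quantile normalization and with a pseudocount of 0.0573. The other 3 of the 5 scalings tried (2 re-centrings on a median and scaling to the 75th percentile) multiply every ratio by 1 factor and cannot change an order. With 1 array per group it cannot be said whether neighbours in this order differed. In the brightest bin 131 of the 208 entries (63.0%) had a ratio below 1 with the deposited values, and from 95 to 151 under the 5 scalings. All 3 ratios of the 5p arms were below 1 under each of these settings, the nearest to 1 being 0.937 for miR-34c-5p with quantile normalization.

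The 3p arms of the same gene pair differed little between the arrays. The intensity of miR-34b-3p was 1.90 in EPO-MVs and 1.79 in MSC-MVs (ratio 1.06). That of miR-34c-3p was 2.16 in EPO-MVs and 2.18 in MSC-MVs (ratio 0.991). Over the 5 scalings the ratio of miR-34b-3p ranged from 1 to 1.10, and that of miR-34c-3p, whose side of 1 changed, from 0.957 to 1.04. The third 3p arm, miR-34a-3p, was dim. Its intensity was 0.0170 with EPO and 0.0246 without, a ratio of 0.690, just inside the threshold.

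**Figure D2:**
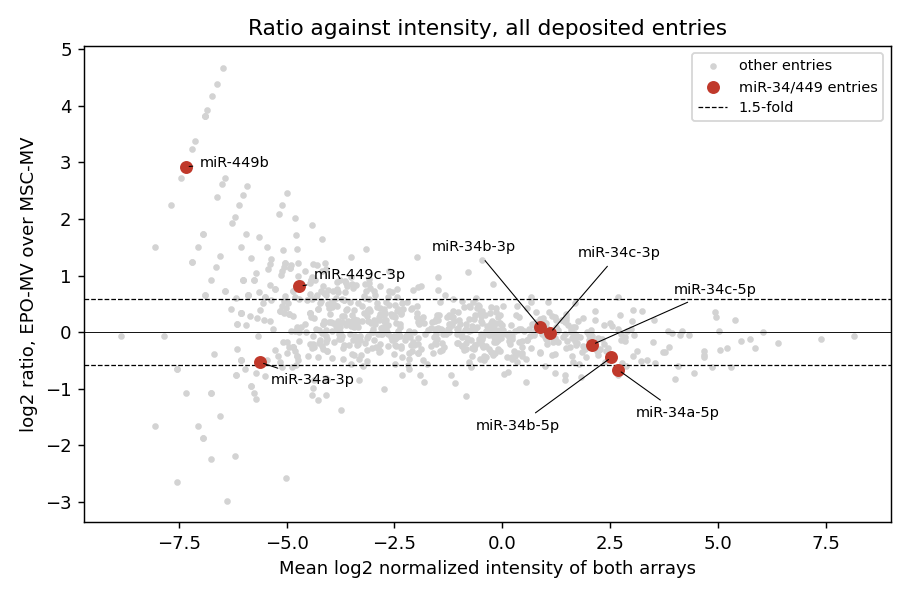
The log2 ratio of EPO-MV over MSC-MV against the mean log2 normalized intensity of both arrays for all 831 entries (grey) and the 8 miR-34/miR-449 entries (red), with 1.5-fold marked by dashed lines. The entry miR-34a-5p is just below the lower line among bright entries, and miR-449b is at 2.92 among the dimmest, where the grey points spread most.

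The scale of the dim values is coarse. The values of an array were all integer multiples of its lowest value, to within 0.0001 of it, which is here named a step. An intensity of 1 equalled 471 steps for the EPO-MV array, against 447 for the other. In these units miR-34a-3p had 8 steps in EPO-MVs and 11 in MSC-MVs. Moving each of its values by 1 step would place its ratio anywhere from 0.554 to 0.854. By contrast miR-34a-5p had 2412 and 3639 steps. Such ranges describe the resolution of the deposited values and not the error of the measurement. The ratio of miR-34a-3p was past the lower threshold with re-centring on the median of all entries (ratio 0.667, at the threshold itself), with quantile normalization (0.519) and with lowess (0.471).

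Guide and passenger strands of a hairpin come from 1 precursor, so the arms of each Mir34 gene were set side by side as log2 ratios of EPO-MV over MSC-MV. For Mir34b the 5p arm had -0.45 and the 3p arm 0.09, a difference of -0.54, which was smaller with quantile normalization (ratios of 0.826 and 1). For Mir34c the arms had -0.22 and -0.01, a difference of -0.21. For Mir34a they had -0.67 and -0.53, a difference of -0.13, with the 3p arm at the few steps given above. With the deposited values the 5p arm was thus the lower one in all 3 hairpins. For Mir34a the order turned with quantile normalization (ratios of 0.730 for the 5p arm and 0.519 for the 3p arm) and with lowess (0.698 and 0.471). With the deposited values it was also the lower one in 118 of all 222 hairpins with an entry for each arm (53.2%), and in 25 of the 54 hairpins with both arms above the median intensity (46.3%). Among these 54, also with the deposited values, the median size of the difference was 0.30, and 9 hairpins had a larger difference than Mir34b. The difference of Mir34c was smaller than that median, with 36 hairpins above it.

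**Figure D3:**
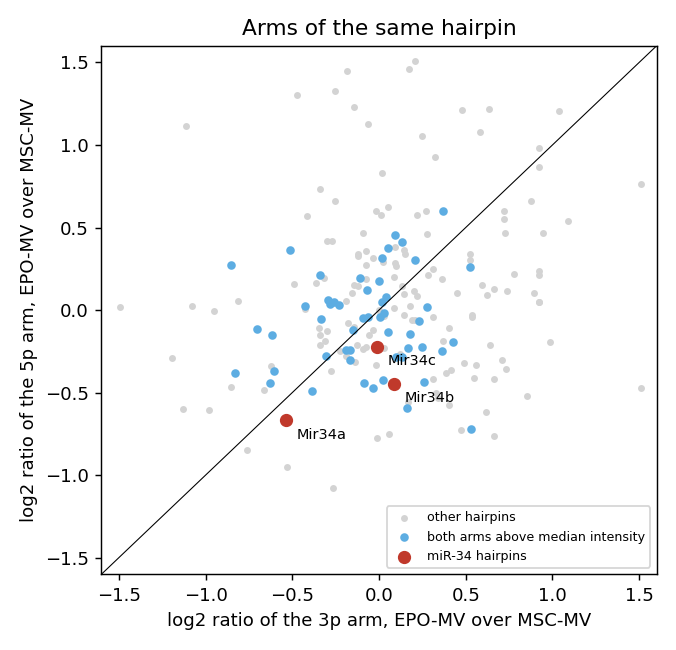
The log2 ratio (EPO-MV over MSC-MV) of the 5p arm against that of the 3p arm, 1 point per hairpin, with hairpins whose arms were both above the median intensity in blue and the 3 Mir34 hairpins in red. The line marks equal ratios, the 3 red points lie below it with the deposited values (Mir34a above it with quantile normalization or lowess), and 23 hairpins fall outside the plotted range of 1.6 in either direction.

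The miR-449 entries were both past the threshold as higher in EPO-MVs, at low intensity. The entry miR-449b had 0.0170 in EPO-MVs and 0.00224 in MSC-MVs, which is 8 steps and 1 step (ratio 7.59). A single step is the smallest value on the MSC-MV array, where 14 entries lay at it. Of these 14, 13 were past the threshold as higher in EPO-MVs, with a median of 13 steps there for all 14, and 9 of them had more EPO-MV steps than miR-449b. Moving each value of miR-449b by 1 step, but never below 1 step, would give ratios from 3.32 to 8.54. The upper end is no bound, because the MSC-MV value could not be moved down. The ratio of miR-449b was above 1.5 under all 5 scalings, with 4.69 for quantile normalization and 3.75 for lowess as the lowest. It was 1.25 with the pseudocount of 0.0573, which exceeds the value of miR-449b on both arrays.

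The other member of the Cdc20b intron, miR-449c-3p, had 0.0510 in EPO-MVs and 0.0291 in MSC-MVs, which is 24 and 13 steps (ratio 1.75). Its seed is not that of the 5p arms, so it is listed in the family by gene and not by target. A move of 1 step in each value would leave it past the threshold, between 1.56 and 1.98. It was under the threshold with quantile normalization (1.36), lowess (1.36) and the pseudocount (1.25). In the dimmest bin 73 of the 208 entries had a higher ratio than miR-449c-3p and 9 had a higher ratio than miR-449b. In that bin 96 entries (46.2%) were past the threshold as higher and 31 as lower, and its median ratio was 1.40. With quantile normalization these were 58 and 56 (median 1.00), with lowess 56 and 58 (1.01), and with the pseudocount 12 and 1 (1.10). Whether either miR-449 entry is above background cannot be said, because background was not among the values used here.

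**Figure D4:**
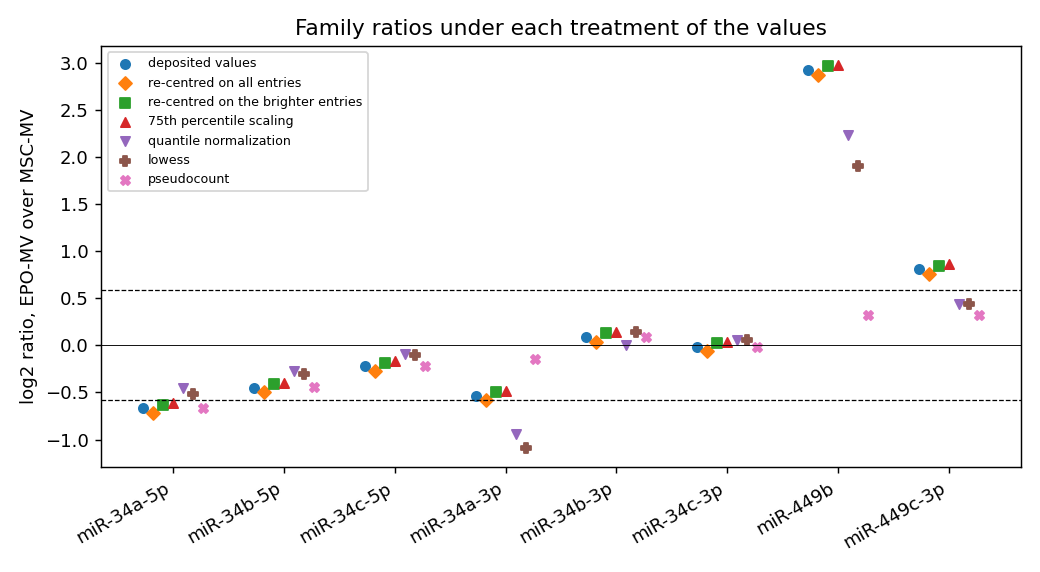
The log2 ratio (EPO-MV over MSC-MV) of each miR-34/miR-449 entry with the deposited values, under 5 other scalings and with a pseudocount of 0.0573 added to both arrays, with 1.5-fold marked by dashed lines. The miR-34 5p arms are below 0 under every setting shown, while miR-449b moves from 2.92 with the deposited values to 0.32 with the pseudocount.

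The entries closest to the members in the plane of both log2 intensities were taken as those of most similar pattern, over the 2 arrays only. For miR-34a-5p these were miR-146a-5p (ratio 0.591), miR-15b-5p (0.681) and miR-98-5p (0.723). For miR-34b-5p they were miR-98-5p, miR-19b-3p (0.752) and miR-221-3p (0.823). The entries nearest to miR-34c-5p were miR-30a-5p (0.841), miR-30c-5p (0.882) and miR-106b-5p (0.862). Those nearest to miR-34c-3p were miR-5624-5p (0.990), miR-669c-5p (0.971) and miR-5624-3p (1.02), and those nearest to miR-34b-3p were miR-872-3p (1.12), miR-214-5p (1.02) and miR-182-5p (1.09). Around miR-449b lay miR-192-5p (6.64), miR-302b-5p (9.49) and miR-302d-5p (10.4), all at 1 step in MSC-MVs. Around miR-449c-3p lay miR-496a-5p (1.83), miR-532-3p (1.98) and miR-664-5p (1.49), and around miR-34a-3p lay miR-3071-5p (0.604), miR-5127 (0.712) and miR-206-5p (0.584).

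Other miRNAs linked to p53 were read from a pair of lists. The first holds miRNAs whose transcription or processing p53 is known to promote (miR-192, miR-194, miR-215, miR-107, miR-143, miR-145, miR-16, miR-200c and miR-141), with 18 entries. Of these, 5 were past the threshold as higher in EPO-MVs, 2 as lower and 11 were within it. These are 27.8% and 11.1% of the list, beside 17.8% higher and 7.58% lower of all entries, and the median ratio was 0.895 against 1.04 for all entries. The 2 lower ones were in the brightest bin. Of the 5 higher ones, 3 were in the dimmest bin and 2 in the next one. Over all entries too, lower calls outnumbered higher ones in the brightest bin and higher ones outnumbered lower ones in the dimmest, with the deposited values. The lower ones were miR-16-5p, which represses cyclins and Bcl2 (16.9 in EPO-MVs and 27.9 in MSC-MVs, ratio 0.605), and miR-143-3p, abundant in stromal and smooth muscle cells (31.9 and 49.3, ratio 0.648). Neither was past the threshold with quantile normalization or lowess, and miR-143-3p was also within it with scaling to the 75th percentile. The entry of miR-145a-5p, which it shares with miR-145b, had 9.60 and 14.1 (ratio 0.683). All 4 entries of this list in the brightest bin had a ratio below 1, also under each of the 5 scalings, beside the 131 of 208 and the 95 to 151 of 208 of that bin given above.

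The higher ones were miR-192-5p, miR-200c-3p, miR-200c-5p, miR-141-3p and miR-215-3p. The entry miR-192-5p, from a p53-responsive gene cluster, was close to miR-449b, with 7 steps against 1 step (ratio 6.64). For miR-200c-3p, which represses Zeb1 and Zeb2, the values were 18 and 6 steps (ratio 2.85). For miR-141-3p, from the same gene cluster, they were 32 and 16 steps (ratio 1.90), and for miR-215-3p they were 74 and 41 steps (ratio 1.71). The other arm of the miR-200c hairpin, miR-200c-5p, had 43 and 24 steps (log2 ratio 0.77) and was within the threshold with quantile normalization and lowess. With the pseudocount none of the 18 entries was past the threshold as higher. The paper also measured miR-200c-3p and miR-302b-5p with replicates. It reported both as up-regulated in EPO-MVs, with significance for miR-200c-3p and not for miR-302b-5p.

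The second list holds entries of miRNAs known to target the p53 mRNA (miR-125b, miR-504, miR-25, miR-30d, miR-33 and miR-380). It takes any arm of these names, and which arms target p53 mRNA was not separated. The list has 12 entries and a median ratio of 0.990. Of these, 3 were past the threshold as higher, 1 as lower and 8 were within it, which is 25% higher and 8.33% lower beside the same shares of all entries as above. The lower one was miR-25-3p, with 0.493 in EPO-MVs and 0.756 in MSC-MVs (ratio 0.651). It was within the threshold with the pseudocount (0.676), re-centring on the brighter entries (0.669) and 75th percentile scaling (0.676). The higher ones were miR-504-3p (ratio 1.65), miR-33-3p (1.58) and miR-504-5p (1.52), and none of these 3 was past the threshold with quantile normalization, lowess or the pseudocount. Re-centring on all entries also placed miR-504-5p within it. The brightest entry of the list, miR-125b-5p, had 33.6 in EPO-MVs and 40.9 in MSC-MVs (ratio 0.822).

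**Figure D5:**
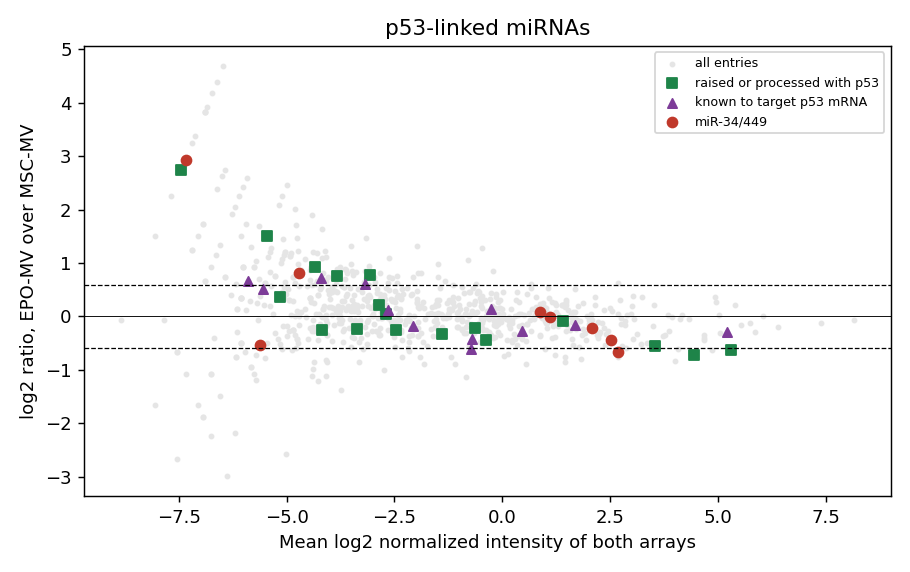
The log2 ratio (EPO-MV over MSC-MV) against the mean log2 normalized intensity for all entries (light grey), the 8 miR-34/miR-449 entries (red circles), the 18 entries of miRNAs promoted by p53 (green squares) and the 12 entries of miRNAs that target p53 mRNA (purple triangles). With the deposited values, the coloured points above the upper 1.5-fold line lie at lower intensity than those below the lower line. Both p53 lists take any arm of the named miRNAs.

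The label of the MVs was checked against miRNA markers of cell types, in normalized intensities. Some markers also stand in the p53 lists, namely miR-143-3p, miR-145a-5p, miR-125b-5p, miR-200c-3p and miR-141-3p. All 8 markers of MSCs and stroma were in the brightest bin, with 0.796 to 78.9 in EPO-MVs, 1.33 to 90.3 in MSC-MVs and sums of 192.3 and 247.2. Their ratios, from 0.599 to 0.873, were all below 1, beside 131 of the 208 entries of that bin (63.0%). With lowess 1 of the 8 was above 1, and with quantile normalization 1 was at 1. Blood cell markers were bright as well, with 3 of the 4 in the brightest bin and sums of 63.4 and 75.5. Their ratios lay on both sides of 1, with 0.900 for miR-142-3p (44.0 and 48.9), 0.921 for miR-142-5p, 0.659 for miR-223-3p and 1.36 for miR-150-5p. The ratio of miR-223-3p was past the lower threshold, but within it under 4 of the 5 scalings, where it ranged from 0.677 to 0.783. Of the 3 erythroid markers 2 were measured, with a ratio of 0.902 for miR-451a (3.87 and 4.28) and 1.75 for miR-144-3p (0.340 and 0.195). Of the 7 epithelial markers 6 were measured, the highest value being 0.221, with sums of 0.567 and 0.468 and ratios from 0.712 to 2.85. The part of these cell types in the values of the miR-34/miR-449 family was not tested.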

How the data were processed

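RNA of MVs was labelled with the dye Hy3 and hybridized to the miRCURY LNA Array. The authors read intensities with GenePix Pro, averaged replicate spots and applied median normalization, with a factor taken over miRNAs that reached an intensity of 30 in every sample. The deposited values are these normalized intensities on a linear scale, 831 per array. Background correction, the choice of listed miRNAs and a genome build are not given in the sources used here. Totals were 1957 for EPO-MVs and 2147 for MSC-MVs, and the number of arrays limits the precision.

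Ratios of EPO-MV to MSC-MV were computed with no filter. Steps, intensity bins and calls are explained in the text. The members and lists were chosen with earlier results of these data known. The text names every family entry, the 3 nearest entries to each, and entries of the p53 and marker lists, where miR-145a stood for miR-145. Alternatives were 10 settings of fold, filter, scaling (lowess with a span of 0.4 and 3 iterations) and pseudocount (the 25th percentile of all values). Counting was tested on simulated data with 200 entries changed 2-fold and no noise added. All were recovered, which checks the code only and not the calls in real data. Python 3.11.15 with pandas 2.3.3, numpy 2.4.6, statsmodels 0.14.6 and matplotlib 3.10.9 was used.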

Additional observations from a re-analysis of the deposited data

How the results depend on the processing

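With the deposited values 3 of the 8 miR-34/miR-449 entries passed 1.5-fold. The number was 1 at a 2-fold threshold (miR-449b) and 5 at 1.2-fold, as a change of threshold brings about. The share of all entries was not counted at these thresholds, so neither number is read as a result about the members. Among the 5 members with at least 30 steps on both arrays the number was 1, miR-34a-5p, beside 62 of 573 entries (10.8%). It was also 1 of the same 5 with at least 30 steps on either array, beside 103 of 635 (16.2%). With the pseudocount, which shrinks ratios of dim entries by construction, it was 1, again miR-34a-5p, beside 6.50% of all entries. Re-centring on all entries gave 4 (24.8% of all entries), re-centring on the brighter entries 3 (25.6%), 75th percentile scaling 3 (25.9%), quantile normalization 2 (22.9%) and lowess 2 (22.6%). The 2 were miR-449b and miR-34a-3p with quantile normalization and with lowess. Over the 48 ratios of single members under the 5 scalings and the pseudocount, 39 kept their side of the threshold, 6 fell inside it, 3 passed it and none reversed a call. The cause of these changes was not tested otherwise. No paired analysis was possible because each group had 1 array.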
